A study of Mus musculus with 8 samples.

Results

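The 10 genes described here are listed targets of the transcription factor p53 and genes of programmed cell death: Sesn1, Perp, Casp8, Cdkn1a, Mdm2, Bax, Bbc3, Pmaip1, Ccng1 and Trp53inp1. They were taken by symbol from the 52502 genes with a matched exon ID, and 5 of the 10 had enough counts to be tested among 10673 tested genes. RNA was measured in germinal vesicle (GV) oocytes, fully grown oocytes held in meiotic prophase, of C57BL/6 females given as 20 days old in one label and 3 weeks old in another. The females received 5 IU of the gonadotropin PMSG, which makes follicles grow, and 48 hours later oocytes with a diameter of 70 µm or more were isolated, about 20 for each library. Complementary DNA was primed by oligo-dT and amplified before sequencing, and the labels describe no molecular identifiers, so intervals cover counting error only. The 4 control libraries carried the genotype Kiaa1429F/+;Zp3-Cre, with 1 floxed allele, and the 4 conditional knockout (cKO) libraries Kiaa1429F/F;Zp3-Cre, with both alleles floxed. All animals thus carried Zp3-Cre, a recombinase driven by a promoter of growing oocytes, and the controls are not free of the floxed allele. Kiaa1429, now named Virma, encodes a subunit of the methyltransferase complex behind N6-methyladenosine (m6A), a mark on messenger RNA. The series' design text gives 4 separate experiments for the 8 libraries, without saying which library belongs to which experiment or animal. All p-values here measure how these libraries vary.

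p53 is held at a low level by the ubiquitin ligase Mdm2 and its partner Mdm4, and is released by DNA damage and other stress. It then switches on genes that stop the cell cycle, such as Cdkn1a, and genes that open the mitochondrial membrane, such as Bax, Bbc3 and Pmaip1, after which caspases cleave the cell's proteins. In mouse oocytes the p53 relative p63 is known to carry out much of this role after DNA damage. Caspase 8 stands apart from this route, as it starts the cascade below death receptors at the cell surface.

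Counts are reads that the authors assigned to a single exon ID. CPM is the count relative to library size, corrected by TMM, a method that sets the bulk of genes level between libraries. Counts on exon IDs were 4247471 to 5064008 per library, and 3 counts in a library were 0.592 to 0.706 CPM. Virma itself stood at 57.1 to 82.0 CPM in the controls and at 17.0 to 24.2 CPM in the cKO, so each library followed its label. Which exons of Virma are floxed is not stated in the labels. All 10 oocyte markers listed were tested, of which 3 fell (Gdf9, Bmp15 and Zp1) and 0 rose. The oocyte factors Gdf9 and Bmp15 stood at mean levels of 13580 and 18800 CPM in controls and of 8130 and 7334 CPM in the cKO. The other markers were not called, among them Nobox (log2 fold change 0.39) and Zp3 (-0.05). Over all tested genes 27% were called higher and 27.9% lower, so 3 falls among 10 markers lie near that share. The 16 cumulus and granulosa markers summed to 206 to 364 CPM in controls and to 403.7 to 692.2 in the cKO, but did not move together: of 9 tested, 3 rose (Inha, Nr5a2 and Ptgs2) and 2 fell (Fshr and Cyp19a1). Most of the higher sum lay in Nr5a2, at means of 138.7 CPM (control) and 322.8 CPM (cKO), and Inha, at 66.1 and 173.5 CPM, while Fshr stood at 19.6 and 6.25 CPM and Cyp19a1 at 27.4 and 12.6 CPM. The 8 immune and blood markers summed to 0.239 to 1.55 CPM in controls and to 5.53 to 9.46 CPM in the cKO, nearly all of the difference in C1qa (0.177 and 7.003 CPM), the 1 marker of that list with enough counts to test. Of the same list 5 markers, Ptprc, Adgre1, Cd74, Hba-a1 and Hbb-bs, were at 0 in every library. The part of other cells in the results below was not tested. Reads that met more than 1 exon ID, which enter no count, were 72.9% to 75.4% of reads in controls and 78.8% to 80.4% in the cKO, and reads outside exon IDs were 9.86% to 12.0% and 5.01% to 6.19%. Both shares thus moved with the genotype without overlap, and their part in the differences between the groups was not tested.

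The sequences below are the matches to the p53 response element in the start regions of the members. They show which members carry the best known form of the p53 binding site close to a start. RefSeq start regions of GRCm38.p6, from 250 bases before to 50 bases after each start, were searched on the coding strand for 20-base elements with at most 2 mismatches to the p53 consensus, which reads the same on both strands. The C and G at the fixed positions of each 10-base repeat unit had to match. A region was found for 7 members, Sesn1, Casp8, Cdkn1a, Mdm2, Bax, Bbc3 and Ccng1, and 2 of these held a match. Capitals mark the element, with 5 bases on each side in lower case.
Ccng1: aggccAGACCTGCCCGGGCAAGCCTtggca
Cdkn1a: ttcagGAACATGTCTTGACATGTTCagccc
The element of Ccng1 lies at chr11:40755462-40755481 on the minus strand and that of Cdkn1a at chr17:29090928-29090947 on the plus strand, each with 1 mismatch. Cdkn1a had 2 regions. The match lies ahead of its upstream first exon (from 29090979), and its other region held none. Of 32851 regions of this length 0.326% held a match, and 0.067% held one with at most 1 mismatch. Perp, Pmaip1 and Trp53inp1 had no entry among the regions. The absence of a match in the other 5 searched members says only that these letters are not in these windows. Of the 2 genes with a match, Ccng1 could be tested and Cdkn1a could not.

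All 5 members with enough counts differed between the groups. Sesn1, Perp, Pmaip1 and Ccng1 rose in the cKO and Casp8 fell (edgeR quasi-likelihood test, adjusted p under 0.05 over all tested genes). The background is wide: 54.9% of all tested genes were called, 27% higher and 27.9% lower, so being called does not set a member apart. In all 5 the groups did not overlap, as in 50.1% of tested genes. The median log2 fold change of the 5 was 1.68, beside 0.02 over all tested genes. As the members were chosen with earlier results of these data known, no conclusion is drawn from this median. All 5 calls held with each library left out in turn. As RNA of pooled oocytes was measured, fewer cells holding a transcript and less of it per cell cannot be told apart.

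Sesn1 encodes sestrin 1, a stress protein that restrains the growth kinase mTORC1. It is ENSMUSG00000038332.13 on chromosome 10 (41809935 to 41908424, plus strand). The control libraries 1 to 4 held 6.21, 9.81, 7.10 and 4.75 CPM and the cKO libraries 43.4, 51.6, 67.7 and 40.3 CPM. The lowest cKO library thus lay well above the highest control. The fold was 7.25 (2.86 ± 0.24 SE as log2 fold change, edgeR adjusted p = 2.4e-07), and 97.5% of tested genes had a lower log2 fold change. Its last exon (41907272 to 41908424, coding and 3' untranslated) held 96.2% of its counts and rose with a log2 fold change of 2.91 ± 0.24 (SE; edgeR adjusted p = 1.39e-07 over all 14052 tested exons, of which 53.1% were called and 25.2% called higher). The other 7 exon IDs with counts held 4 or fewer counts in any library, so nearly all of the measured rise came from the 3' end. The paralogs Sesn2 and Sesn3 had mean levels of 2.77 and 43.5 CPM (control) and of 2.96 and 40.8 CPM (cKO), and neither was called (log2 fold changes 0.08 and -0.10, adjusted p = 0.894 and 0.671, edgeR).

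Perp encodes a membrane protein of cell junctions that takes part in p53-dependent apoptosis. The gene (ENSMUSG00000019851.8) lies on chromosome 10 (18845020 to 18857073, plus strand). The control libraries held 9.76, 9.58, 15.3 and 11.01 CPM and the cKO libraries 33.0, 30.2, 45.1 and 37.5 CPM. Every cKO library was above every control. The fold was 3.20 (1.68 ± 0.21 SE as log2 fold change, edgeR adjusted p = 8.06e-06). The last exon (18855650 to 18857073) held 95.2% of the counts and had a log2 fold change of 1.73 (SE 0.21). The first exon (18845020 to 18845406) held 14 control and 27 cKO counts, too few to be tested.

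Pmaip1, also called Noxa, encodes a BH3-only protein that binds and removes the survival factor Mcl1. It is ENSMUSG00000024521.8 on chromosome 18 (66458533 to 66465565, plus strand). Its level was the lowest of the 5, with 2.44, 5.27, 3.68 and 1.25 CPM in the control libraries and 12.6, 6.59, 13.5 and 8.43 CPM in the cKO. The groups came close, with control library 2 at 5.27 and cKO library 2 at 6.59 CPM. The fold was 3.23 (1.69 ± 0.36 SE as log2 fold change, edgeR adjusted p = 0.000931). These values rest on 52 control and 196 cKO counts, nearly all (98.8%) on the last exon. The filter asks for its minimum count of 10 in 4 libraries, and control library 4 held 5 counts. Pmaip1 thus would not have passed the filter on its control libraries alone.

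Ccng1 encodes cyclin G1, which works in the feedback between p53 and Mdm2. The gene (ENSMUSG00000020326.7) lies on chromosome 11 (40748552 to 40755311, minus strand), with the p53 element shown above ahead of its start. The control libraries held 12.6, 15.1, 16.3 and 13.01 CPM and the cKO libraries 27.7, 23.8, 33.5 and 24.0 CPM. The groups were again apart. The fold of 1.91 was the smallest of the 4 rises (0.93 ± 0.19 SE as log2 fold change, edgeR adjusted p = 0.000645), and 83.3% of tested genes had a lower log2 fold change. Ccng1 is the risen member of which exons at both ends were tested. Its last exon (40748552 to 40751059) showed a log2 fold change of 0.92 ± 0.20 (SE; edgeR adjusted p = 0.00102) and its untranslated first exon (40755001 to 40755311) of 0.99 ± 0.35 (SE; edgeR adjusted p = 0.0256). The first exon held 5 to 9 counts in each control library, under the filter's minimum count of 10. It was thus tested only through its cKO libraries. Its groups overlapped, with control library 3 at 2.37 CPM and cKO library 4 at 2.25 CPM. The call of the first exon, which holds 11.9% of the counts, was lost with 5 of the 8 libraries left out in turn (control 1 or 2, or cKO 1, 2 or 3), with log2 fold changes of 0.83 to 0.98 there. The paralog Ccng2 had 3 control and 2 cKO counts.

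Casp8 encodes caspase 8, the initiator caspase of death receptors, which also keeps necroptosis in check. It is ENSMUSG00000026029.14 on chromosome 1 (58795374 to 58847503, plus strand). It was the most abundant member in controls, with 57.4 CPM per kilobase of countable bases against 5.84 for Perp, 5.27 for Ccng1, 1.78 for Sesn1 and 1.18 for Pmaip1. Countable bases are those that a single exon ID of the files covers. In the cKO the same levels per kilobase were 18.7 for Perp, 14.9 for Casp8, 12.99 for Sesn1, 10.1 for Ccng1 and 3.84 for Pmaip1. The order of these genes is a description, since reads were not spread evenly along the genes, with 88.0% to 98.8% of counts on the last exon in the 4 members that rose. By library, Casp8 stood at 129.7, 89.3, 81.8 and 128.3 CPM in controls and at 31.7, 30.8, 21.1 and 27.9 CPM in the cKO. The highest cKO library was far below the lowest control. The level was 3.85-fold lower in the cKO (-1.95 ± 0.20 SE as log2 fold change, edgeR adjusted p = 1.09e-06), and 5.57% of tested genes had a lower log2 fold change.

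The fall of Casp8 was seen in separate parts of the gene. A coding exon of 502 bases (58844344 to 58844845) held 85.9% of its counts, with 110.7, 78.5, 69.4 and 112.6 CPM in the control libraries and 27.0, 25.3, 17.6 and 23.8 CPM in the cKO. Its log2 fold change came to -1.99 ± 0.20 (SE; edgeR adjusted p = 8.58e-07 over all tested exons, of which 27.9% were called lower). A second coding exon of 139 bases upstream (58828873 to 58829011) held 11.8% of the counts and fell as well, with a log2 fold change of -1.82 ± 0.26 (SE; edgeR adjusted p = 3.05e-05). The share of the 2 exons within the gene was not called different (usage log2 change 0.14, SE 0.30, for the upstream exon, adjusted p = 1, edgeR diffSpliceDGE). Across the data 13.3% of the exons in the usage test were called. The Ccng1 exons were not called either, with usage changes of 0.06 (SE 0.27) and -0.01. The last exon of Casp8 (58846622 to 58847503) held 9 control counts and 1 cKO count, although 495 of its 882 bases are countable. With last exons left out of every gene, Casp8 had a log2 fold change of -1.77 and Ccng1 of 1.19, and the other 3 could not be tested. Ccng1 then rested almost wholly on its first exon, with 5 to 9 counts in each control library. As these are under the filter's minimum count of 10, Ccng1 was tested there only through its cKO libraries.

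**Figure D1:**
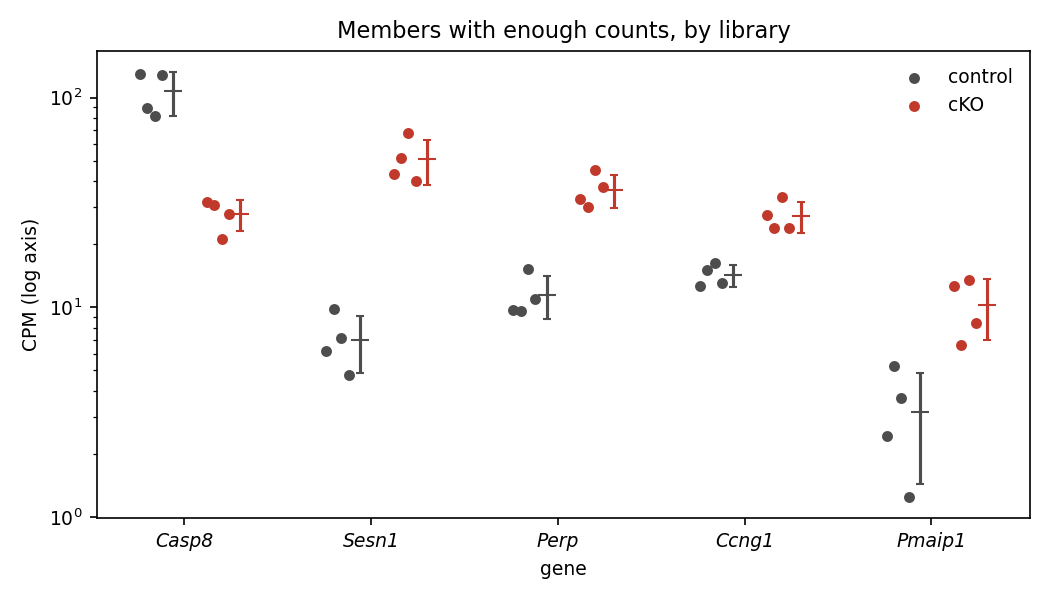
Level of the 5 tested members in each library, as CPM on a log axis. Dark grey points are the 4 control libraries and red points the 4 cKO libraries, with the mean and SD beside them; Casp8 is lower and the other 4 are higher in every cKO library than in any control.

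Among the cKO libraries, library 3 had the highest value of each of the 4 genes that rose and the lowest of Casp8. The same library had the lowest share of reads outside exon IDs (5.01%, against 5.83% to 6.19% in the other cKO libraries) and the highest share of ambiguous reads (80.4%). The part of these shares in the values was not tested. Without cKO library 3 the log2 fold changes were 2.66 for Sesn1, 1.54 for Perp, 1.51 for Pmaip1, 0.80 for Ccng1 and -1.85 for Casp8, and each call held. The granulosa marker Inha was lowest in cKO library 1 (45.4 CPM) and highest in cKO library 4 (310.8 CPM).

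**Figure D2:**
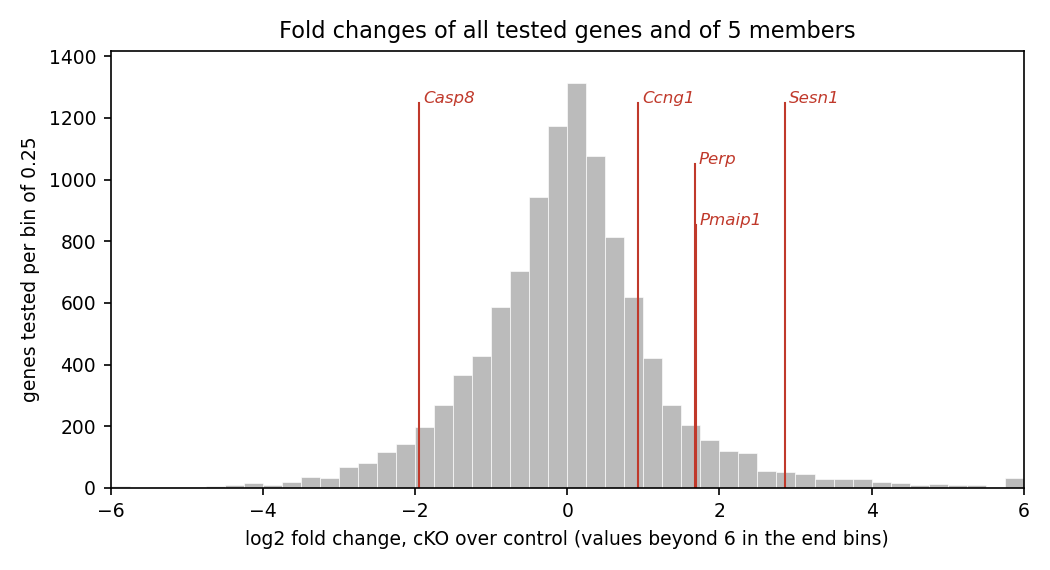
Distribution of log2 fold changes (cKO over control) of all 10673 tested genes in bins of 0.25, with the 5 tested members marked by red lines. Sesn1 at 2.86 lies far in the right flank, Perp and Pmaip1 at 1.68 and 1.69 nearer, Ccng1 at 0.93, and Casp8 at -1.95 in the left flank.

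The other 5 members had at most 4 counts in any library and were not tested. Cdkn1a, which encodes the cell cycle inhibitor p21, had 2, 2, 3 and 1 counts in the control libraries and 1, 1, 4 and 1 in the cKO. All of them lay on its last exon (chromosome 17, 29099344 to 29100722), of which 1021 of 1379 bases are countable, so the gene could have been counted there. The ratio of cKO to control was 0.751 with a 95% Clopper-Pearson interval of 0.232 to 2.37, which covers counting error only. A rise of Cdkn1a as large as those of Sesn1, Perp or Pmaip1 lies outside this interval, while one of the size of Ccng1 lies within it.

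The low counts of the other 4 say less about their levels. Mdm2, the ligase that removes p53 and is itself a p53 target, had 0 control and 5 cKO counts. Of its 38 exon IDs 31 have no countable base, and its last exon of 1911 bases has 20. Trp53inp1, a stress protein that acts with p53 and in autophagy, had 1 control count and 9 cKO counts (ratio 7.72, interval 1.07 to 338). Its 4670-base last exon stands in the files under 2 IDs and cannot be counted, so these reads come from another last exon of 1311 bases. Bax, which forms pores in the mitochondrial membrane, had 1 count in each group, and 14 of its 17 exon IDs have no countable base. Bbc3, also called Puma, a BH3-only protein, had 0 control and 2 cKO counts on the 508 countable bases of its last exon. Tested without a filter on low counts, none of these 5 genes was called, with adjusted p = 0.777 for Cdkn1a, 0.114 for Mdm2, 0.949 for Bax, 0.36 for Bbc3 and 0.121 for Trp53inp1 (edgeR).

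**Figure D3:**
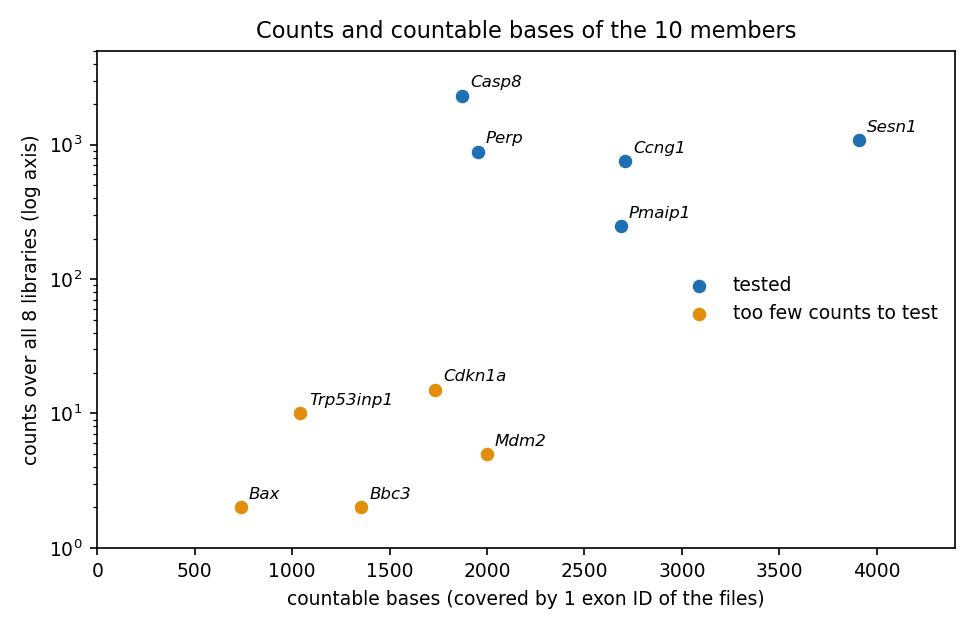
Counts summed over all 8 libraries (log axis) against countable bases for the 10 members. The 5 tested genes (blue) held 248 to 2317 counts and the 5 untested genes (orange) 2 to 15, at 736 to 1998 countable bases.

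Among the genes that control p53, more fell than rose. Of 20 listed genes 13 were tested, of which 1 rose and 6 fell. Over all tested genes 27% were called higher and 27.9% lower, so calls as such were common. The median log2 fold change of the 13 was -0.42, beside 0.02 over all tested genes. Mdm4, the partner of Mdm2 that blocks p53, fell from 2034 ± 115.2 CPM in controls (SD, n = 4) to 801 ± 36.8 CPM in the cKO (n = 4), with a log2 fold change of -1.34 ± 0.11 (SE; edgeR adjusted p = 1.63e-07). The control libraries of Mdm4 lay between 1919 and 2174 CPM and the cKO libraries between 764.8 and 852.1 CPM. Rchy1, another ubiquitin ligase of p53, fell from 15.5 ± 3.65 to 5.39 ± 0.754 CPM, and Hipk2, a kinase that activates p53, from 18.5 ± 3.07 to 9.63 ± 1.89 CPM. Ppm1d, a phosphatase that is a p53 target and switches p53 off, rose from 50.0 ± 10.2 to 93.3 ± 20.4 CPM (log2 fold change 0.90), a call lost when last exons were left out (0.63, edgeR adjusted p = 0.237; its range over all alternatives was 0.63 to 1.06). The p53 relative Trp63 had a mean of 19.7 CPM (control) and 23.4 CPM (cKO), with an edgeR adjusted p = 0.254. Trp53 itself had 1 count in all 8 libraries and was not tested. Its 24 exon IDs have 2248 countable bases, but where these lie along the gene was not examined. Few transcripts and reads lost to overlapping exon IDs thus cannot be told apart for Trp53.

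Other p53 targets went both ways, as did tested genes at large, of which 27% were called higher and 27.9% lower. Of 37 listed genes 20 were tested, of which 8 rose and 3 fell, with a median log2 fold change of 0.09. Gadd45b, a stress gene of growth arrest, rose from 1.57 ± 0.202 to 4.94 ± 0.928 CPM. Its control libraries held 5 to 8 counts, under the filter's minimum count of 10, so it was tested only through its cKO libraries. Plk2, Gadd45a and Trp53i13 were also among the 8 rises. Their lowest control counts were 3, 4 and 6, so they would not have passed the filter on their control libraries alone. The 8 rises thus include genes that the filter kept through the group where they were high. The falls on this list were 3. Tnfrsf21, which encodes death receptor 6, fell from 41.1 ± 11.1 to 4.46 ± 0.767 CPM (-3.19 ± 0.25 SE as log2 fold change), Aen, an apoptosis nuclease, from 21.8 ± 5.51 to 8.55 ± 1.30 CPM, and Rrm2b, a subunit of ribonucleotide reductase, from 779 ± 102 to 468.3 ± 38.1 CPM.

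Casp8 differed in direction from the other caspases named here. Of 27 genes on the list of caspases, apoptosome and their inhibitors, which leaves out Casp8, 15 were tested. Of these 7 rose and 3 fell (median log2 fold change 0.41), beside 27% and 27.9% of all tested genes. The counts include genes that are not caspases, such as Cycs and Birc5, which both fell. Casp2 rose from 70.3 ± 4.87 to 101.7 ± 11.1 CPM. Casp6, a caspase known to cleave nuclear lamins, and Casp9, the initiator of the mitochondrial route, rose from low levels, while Casp8 fell. Casp6 went from 1.75 ± 0.305 to 7.84 ± 0.782 CPM (2.14 ± 0.27 SE as log2 fold change) and Casp9 from 3.47 ± 0.992 to 8.54 ± 1.18 CPM. The control libraries of Casp6 held 5 to 8 counts, under the filter's minimum count of 10, so Casp6 was tested only through its cKO libraries. In Casp6 and in Casp9 every cKO library lay above every control. Groups did not overlap in 50.1% of tested genes, so this does not set them apart.

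Survival and death factors of the BCL2 family were split. Of 20 listed genes 6 were tested, of which 2 rose and 2 fell (median log2 fold change -0.35), beside 27% and 27.9% of all tested genes. Mcl1, the survival factor that Pmaip1 binds, rose from 33.0 ± 12.4 to 78.6 ± 14.7 CPM (1.25 ± 0.23 SE as log2 fold change, edgeR adjusted p = 0.00029). Bcl2l13, a mitochondrial member, rose from 79.9 ± 20.8 to 124.0 ± 21.5 CPM, a call lost without cKO library 3 (log2 fold change 0.49, adjusted p = 0.0525, edgeR; range over alternatives 0.49 to 0.81). Bik, a BH3-only protein, fell from 60.2 ± 10.3 to 36.2 ± 5.97 CPM, and Bcl2l10, a family member that oocytes are known to hold in large amounts, from 10900 ± 1069 to 8237 ± 854.8 CPM (log2 fold change -0.40). The Bik call was lost with last exons left out (-0.52, edgeR adjusted p = 0.0855; range -0.83 to -0.52). The Bcl2l10 call was lost there too (-0.23, adjusted p = 0.101) and without scaling factors (-0.24, edgeR adjusted p = 0.0507; range -0.49 to -0.23).

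Of the 17 genes of death receptors and necroptosis, the route that Casp8 belongs to, 8 were tested. Of these 3 rose and 2 fell (median log2 fold change 0.04), beside 27% and 27.9% of all tested genes. Tnfrsf21, which stands on this list too, had the larger fall. Cflar, which encodes FLIP, the inhibitor that pairs with caspase 8, went from 43.4 ± 9.24 to 27.4 ± 8.94 CPM with groups that overlapped (-0.66 ± 0.22 SE as log2 fold change, edgeR adjusted p = 0.0206). That call was lost under 6 of 17 alternatives, without control library 1 or 4, without cKO library 1, 2 or 3 and without scaling factors, with adjusted p of 0.00239 to 0.0758 over all 17. Cyld, a deubiquitinase of this route, rose from 1.081 ± 0.428 to 3.03 ± 0.841 CPM. With 3 to 7 counts in its control libraries, under the filter's minimum count of 10, it was tested only through its cKO libraries. Tradd, which also rose, held 7, 30, 14 and 6 counts in the control libraries. It would not have passed the filter on those alone. Tnfsf10, the ligand TRAIL, rose from 9.10 ± 1.72 to 14.8 ± 3.23 CPM, a call lost without control library 1 or cKO library 2 (adjusted p = 0.0609 in each, edgeR; log2 fold changes 0.58 and 0.56). The adaptor Fadd, which joins caspase 8 to its receptors, had means of 79.4 CPM (control) and 66.5 CPM (cKO) and was not called (adjusted p = 0.272, edgeR).

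**Figure D4:**
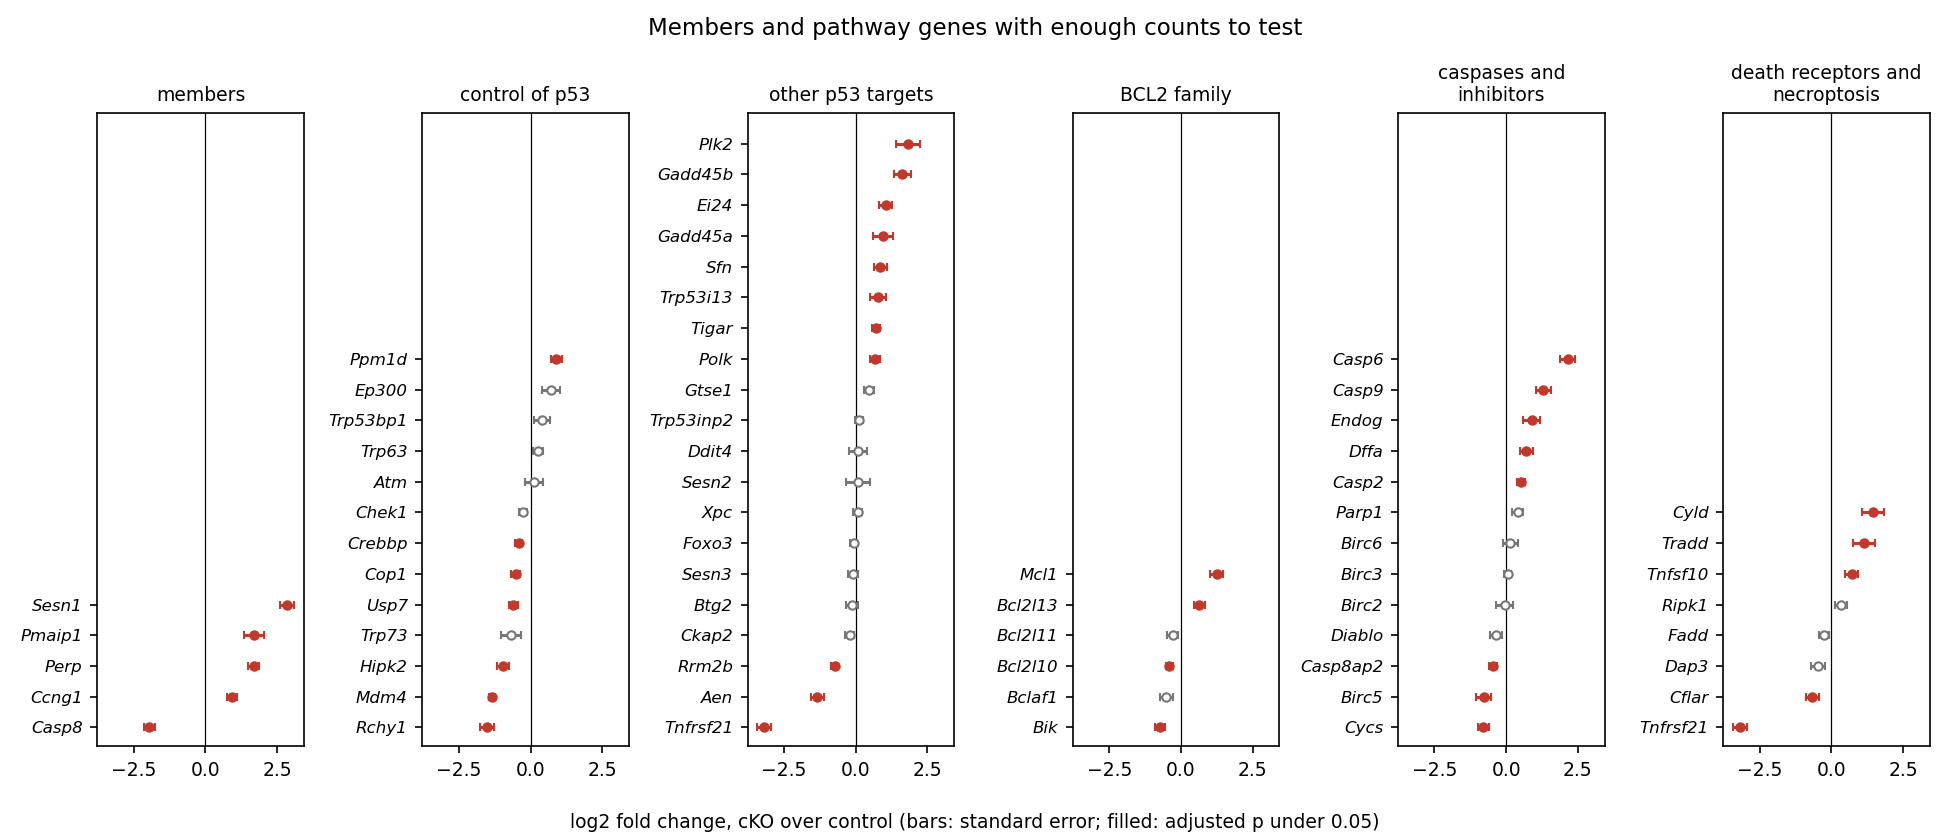
Log2 fold changes (cKO over control) with standard errors of the tested members and of tested genes of 5 pathway lists. Filled red points passed an adjusted p under 0.05; Casp6 and Casp9 lie to the right of 0 and Casp8 to the left, and Tnfrsf21 at -3.19 is the leftmost point.

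The m6A complex is known to favour the letters GGACT on the sense strand of RNA, often near the stop codon. In the transcript with the longest coding part per gene in GENCODE M21 (GRCm38), the 5 tested members held 0.512 (Perp) to 1.31 (Sesn1) GGACT per kilobase. The median of 7990 tested coding genes was 1.00. No tested member held GGACT within 200 bases of its stop codon, where 37.6% of tested coding genes hold one; the Casp8 transcript used ends at its stop codon. The share was 36.6% in genes called higher and 39.2% in those called lower. The sites nearest the stop codon in 2 risen members are shown as examples, with GGACT in capitals.
Perp: gggaggatGGACTaggcctaa
Ccng1: tgggtgatGGACTtacaaagt
That of Perp (chr10:18856619-18856639, plus strand) lies 750 bases and that of Ccng1 (chr11:40750402-40750422, minus strand) 453 bases beyond the stop codon, both in the last exon that was counted. These are matches of letters, and methylation was not measured here.

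Genes whose log2 CPM followed a member most closely over the 8 libraries were B3galnt1 for Sesn1 (Pearson r 0.996), Zfp597 for Perp (0.99), Fkbp6 for Pmaip1 (0.984), Atp10b for Ccng1 (0.996) and Plac8 for Casp8 (0.998). Each was the closest of 6453 genes with at least 10 CPM on average. The 8 libraries fall into 2 groups that differ widely, and 329 genes (for Pmaip1) to 1084 genes (for Casp8) reached an r of 0.9, so a high r was common among the genes compared.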

How the data were processed

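The members and gene lists were chosen with earlier results of these data known. For each library the authors deposited a table of read counts by exon ID, with 496288 IDs and 5 summary lines that were kept out of library sizes. The submitters' processing notes name STAR, HTSeq and the build mm10. No version, counting option or annotation release is given in the sources used here. Ignoring versions, 99.6% of IDs matched GENCODE M21 (GRCm38), and the rest held 0.252% of counts. Per the labels' protocols the tagmented cDNA does not mark strand.

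Counts were summed per gene, filtered with filterByExpr (minimum count 10), normalized by TMM and then tested in edgeR 4.0.16 (R 4.3.3; glmQLFTest, group only, two-sided, Benjamini-Hochberg, threshold 0.05). SE is the fold change over the root of F. Exons were tested the same way with the gene factors, and exon usage with diffSpliceDGE. The functions were tested on simulated data. Alternatives included DESeq2 1.42.0. Replicate numbers did not pair the libraries by the check in the closing section. Named genes are the members, Virma, the markers, up to 4 genes of smallest p per list and the closest gene per member. Of the caspase list 2 such genes are not reported here and not plotted. Paralogs, Trp63, Trp53, Fadd and Ccng2 were added after their values were seen. Casp2, Cycs, Birc5, Plk2, Gadd45a, Trp53i13 and Tradd were also named outside this rule. Sequences are from RefSeq (GRCm38.p6) start regions and GENCODE transcripts.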

Additional observations from a re-analysis of the deposited data

Results flagged for a closer look

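In 50 groups of 4 libraries checked (members, named pathway genes and Virma with at least 30 counts over all libraries), 2 held a library far from the others, and chance alone flags about 1 in 20 groups. Mcl1 stood at 100.4 CPM in cKO library 3 against 67.8 to 73.2 CPM in the other cKO libraries. Gadd45b stood at 3.56 CPM in cKO library 4 against 5.32 to 5.53 CPM in the others, which rests on 19 counts there. Neither concerns one of the 10 members.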

How the results depend on the processing

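The 5 member calls kept direction and side of the threshold under every alternative that could test them, with log2 fold changes of 2.66 to 3.06 for Sesn1, 1.54 to 1.85 for Perp, 1.42 to 2.05 for Pmaip1, 0.80 to 1.19 for Ccng1 and -2.05 to -1.77 for Casp8. With last exons left out 1 member rose (Ccng1) and 973 genes were higher and 995 lower, against 2883 and 2973. Ccng1 was tested there only through its cKO libraries. Some genes, such as Sesn1, Perp and Pmaip1, could not be tested there. Others, such as Ppm1d, Bik and Bcl2l10, were tested and lost their call. With a minimum count of 30, 2601 exons were lower (3927 otherwise) and usage was called in 414 exons (921 otherwise). Leaving out 1 library gave 2602 to 3068 genes higher, 2764 to 3018 lower, 3277 to 3955 exons higher, 3641 to 4086 lower and 801 to 1044 usage calls, with 4 members higher and 1 lower each time. Without scaling factors the median log2 fold change of all genes moved up by 0.157, with 3499 genes higher and 2482 lower. The replicate block gave 2885 genes higher and 2908 lower, 3550 and 3822 exons, 909 usage calls and the same 4 and 1 members. Same-numbered libraries had correlated deviations over 0.1 in 2 of 4 pairs (-0.06 to 0.11), so the numbers were not taken as pairs, and 1 of 4 pairs correlated best with its own number. Depth limits the 5 untested members, where 3 counts over the control group are 0.182 CPM.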
